A study of Mus musculus with 16 samples.

Results

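The enzymes that make and inactivate prostaglandins and leukotrienes were followed in the lungs of Prdm11 knockout and wild-type mice, with and without an allergic airway challenge. The family was taken as 10 genes, Hpgd, Ptgs1, Ptgs2, Ptges, Ptgis, Ptgds, Alox5, Alox5ap, Alox15 and Ltc4s, and every probe annotated with one of these symbols was kept. That gave 12 probes of 9 genes among 25697 probes on the array. Ptgs1, a cyclooxygenase, has no values here. Of the 12 probes, 10 were bright enough on enough arrays to be tested, among 17810 tested probes in all. The probe for Ptgds and a second probe for Ptges were too dim and are given as values only.

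The study measured lung RNA on Illumina bead arrays, 1 array per mouse, in 16 female mice of the C57BL/6N strain. There were 4 mice in each of the 4 groups: challenged Prdm11 knockout, challenged wild type, untreated Prdm11 knockout and untreated wild type. Prdm11 belongs to a family of zinc finger genes with a PR domain, and the design of the knockout allele is not given in the sources used here. The challenged mice were 35 weeks old, had received 10 µg ovalbumin (OVA) in 2 mg alum by intraperitoneal injection, and then breathed a 1% OVA aerosol for 30 min on 3 occasions. The untreated mice were 22 weeks old and carry no treatment in the labels, which do not say whether they had been sensitised. Age and challenge therefore cannot be told apart in any comparison of challenged with untreated mice. The RNA came from a piece of whole lung, so fewer cells of a type and less RNA per cell cannot be told apart either.

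Prostaglandins and leukotrienes are short-lived lipid signals made from arachidonic acid. Cyclooxygenases (Ptgs1, Ptgs2) turn it into prostaglandin H2, which terminal synthases convert further, Ptges to prostaglandin E2, Ptgds to prostaglandin D2 and Ptgis to prostacyclin. Hpgd oxidises prostaglandins to inactive products and is abundant in lung, an organ that clears prostaglandins from the blood. Alox5, helped by the membrane protein Alox5ap, makes leukotriene A4, and Ltc4s joins it to glutathione to give leukotriene C4, the parent of the cysteinyl leukotrienes that constrict airways in allergic reactions. Alox15 is a lipoxygenase of macrophages, eosinophils and epithelium.

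Promoter sequences are shown for Hpgd, Ptges and Ltc4s, the genes with the clearest differences. Each run holds 250 bases before and 50 bases after the annotated transcription start, from RefSeq on the mouse assembly GRCm38.p6, which held promoters for 7 of the 10 genes. Hpgd lies on the plus strand at chr8:56294302-56294601, Ptges on the minus strand at chr2:30903248-30903547 and Ltc4s on the minus strand at chr11:50238483-50238782. Capitals mark matches, on either strand, to the motifs TATAAA (the TATA box), GGGCGG (the GC box), TGANTCA (the AP-1 site) and TTC followed by any 4 bases and GAA (the site type bound by STAT6).
Hpgd: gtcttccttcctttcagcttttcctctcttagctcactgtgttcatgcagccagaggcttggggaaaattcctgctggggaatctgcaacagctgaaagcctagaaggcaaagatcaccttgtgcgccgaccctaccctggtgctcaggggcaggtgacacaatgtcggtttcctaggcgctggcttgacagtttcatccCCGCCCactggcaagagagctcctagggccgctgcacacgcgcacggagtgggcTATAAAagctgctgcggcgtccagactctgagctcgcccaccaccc
Ptges: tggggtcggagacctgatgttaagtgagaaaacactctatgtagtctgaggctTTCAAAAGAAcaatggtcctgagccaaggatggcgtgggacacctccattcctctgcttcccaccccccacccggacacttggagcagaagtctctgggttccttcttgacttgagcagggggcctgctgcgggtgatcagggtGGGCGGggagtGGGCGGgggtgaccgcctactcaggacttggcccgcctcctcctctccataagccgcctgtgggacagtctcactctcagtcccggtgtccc
Ltc4s: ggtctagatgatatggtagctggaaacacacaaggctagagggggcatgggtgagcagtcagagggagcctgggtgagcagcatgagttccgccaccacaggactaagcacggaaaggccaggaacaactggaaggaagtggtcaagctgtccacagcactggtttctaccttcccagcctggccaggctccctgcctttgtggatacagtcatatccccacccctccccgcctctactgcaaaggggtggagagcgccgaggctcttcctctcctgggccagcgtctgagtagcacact
The Hpgd run held a TATAAA match beginning at position 4 after the start and a GC box at -50. The Ptges run held GC boxes at -53 and -42 and 1 match of the STAT6 type at -197. The Ltc4s run held none of the 4 motifs. For scale, TATAAA was present in 13.6% of 32851 mouse promoter windows of the same length, GGGCGG in 35.7%, TGANTCA in 7.81% and the STAT6-type site in 6.95%.

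The arrays carried the lung label's defining genes. Sftpc, the surfactant protein C gene, ran from 4005 to 21418 and Scgb1a1, the club cell secretory protein gene, from 11859 to 45826 in intensity units, a linear measure of probe brightness. Medians of the 16 arrays lay between 85.4 and 86.5. No detection p-value was used, so the 40th percentile of each array, an intensity of 75.4 to 76.2, serves as a gauge of background. No probe carried the name Prdm11, so the genotypes rest on the labels. Replicate 4 of the challenged wild type correlated least with the other arrays (Pearson's r of log2 values 0.676 to 0.842), and challenged knockout replicate 3 had the lowest lung epithelial markers, a mean log2 intensity of 10.30 against 11.35 to 12.12 in the other 3 mice of its group. For several results described here the value without one of these arrays is given, and results given without such a value may also change in size. The skeletal muscle markers were also higher after challenge, with a mean log2 intensity per array of 10.43 to 11.21 in challenged knockout, 8.61 to 10.95 in challenged wild-type, 8.55 to 9.16 in untreated knockout and 8.13 to 8.89 in untreated wild-type lungs.

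**Figure D1:**
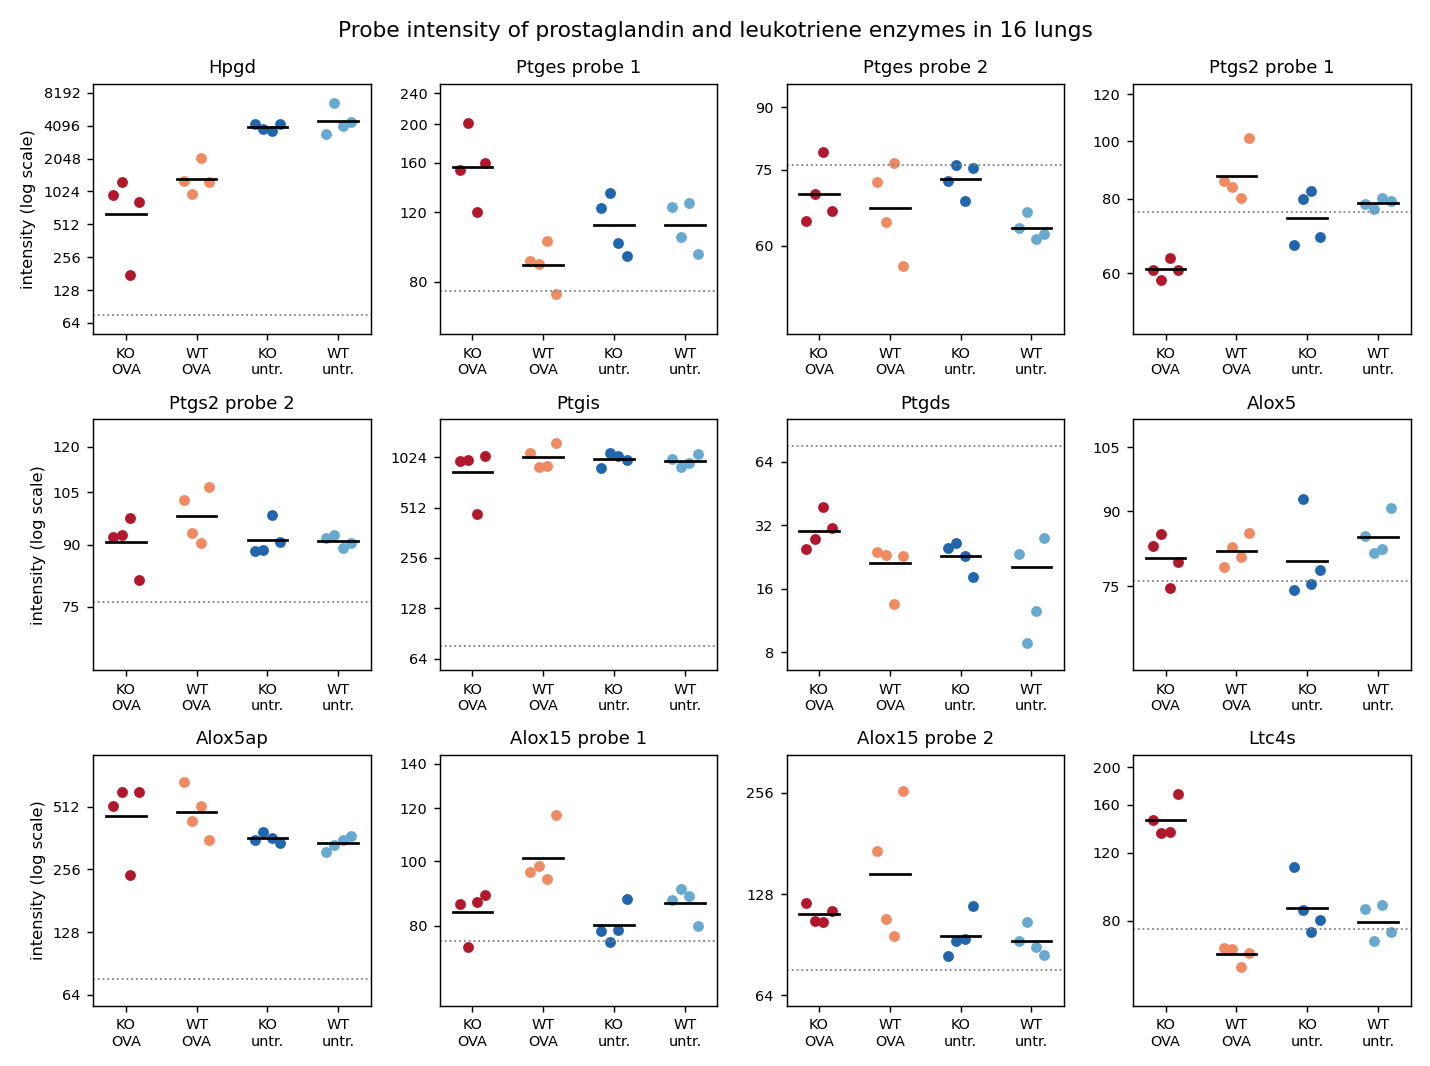
Intensity (log axis) of each measured enzyme probe on every array, grouped from left to right as challenged knockout, challenged wild type, untreated knockout and untreated wild type, with 1 point per mouse, a bar at each group's mean of log2 values and a dotted line at the background gauge. Hpgd is lower in every challenged mouse than in any untreated mouse, and Ltc4s is highest in the 4 challenged knockout mice.

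Hpgd, the prostaglandin-inactivating dehydrogenase, fell in challenged lungs of both genotypes. Its intensity was 943, 1238, 175 and 827 in the challenged knockout mice and 1286, 980, 2079 and 1250 in the challenged wild-type mice. It was 4266, 3809, 3640 and 4266 in the untreated knockout mice and 3444, 6630, 4099 and 4438 in the untreated wild-type mice. All 8 challenged mice lay below all 8 untreated mice, and knockout replicate 3 was by far the lowest. In the knockout Hpgd fell by 2.64 ± 0.44 (SE) on the log2 scale, a 6.22-fold lower level (limma adjusted p = 0.000839). In the wild type it fell by 1.75 ± 0.44 on the log2 scale, a 3.36-fold lower level (limma adjusted p = 0.0097). Without knockout replicate 3 the knockout value was -2.01 (limma adjusted p = 0.000141), so the call did not rest on that mouse although its size did in part.

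Whether Hpgd fell further in the knockout was tested as the difference between both challenge effects, knockout less wild type. It was -0.89 on the log2 scale, with a 95% interval of -2.22 to 0.44 (limma adjusted p = 0.326). Challenged knockout lungs lay 1.07 ± 0.44 below challenged wild-type lungs on the log2 scale (limma adjusted p = 0.0605), and the groups overlapped. Without knockout replicate 3 that difference was -0.44 (limma adjusted p = 0.149). In untreated mice the difference was -0.18, with an interval of -1.12 to 0.76.

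The probes whose pattern over the 16 arrays was most like that of Hpgd, each centred on its own mean, were those of Tmem100, Lyve1 and Emp2. Their root mean squared differences from Hpgd were 0.23, 0.29 and 0.37 log2 units, against a median of 1.34 over all tested probes. Tmem100 is a membrane protein gene of the vascular endothelium, Lyve1 a hyaluronan receptor of lymphatic endothelium, and Emp2 a membrane protein abundant in lung epithelium. In challenged against untreated mice they differed by -2.54, -2.35 and -2.25 on the log2 scale in the knockout and by -1.65, -1.57 and -1.51 in the wild type. Since they were picked for likeness to Hpgd, these differences are a description.

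Among the marker lists of lung cells, those of endothelium and of alveolar type 1 cells held calls in the direction of Hpgd in both genotypes and none in the other direction. Of 9 endothelial markers, 7 fell in challenged knockout lungs and 4 in challenged wild-type lungs. Their mean log2 intensity per array was 8.04 to 9.27 in challenged knockout, 9.15 to 9.85 in challenged wild-type, 10.22 to 10.28 in untreated knockout and 10.17 to 10.28 in untreated wild-type mice. Of 5 tested alveolar type 1 cell markers, 4 fell in the challenged knockout and 2 in the challenged wild type. Of 7 general lung epithelial markers, 4 fell and 0 rose in the challenged knockout, and 0 were called in the challenged wild type. Skeletal muscle markers rose, with 12 of 12 tested genes called higher in the knockout and 8 of 12 in the wild type. Of 7 smooth muscle markers, 1 rose and 1 fell in the knockout, and 0 rose and 3 fell in the wild type. Over all tested probes 9.1% were called higher and 7.48% lower with challenge in the knockout, and 11.7% higher and 17.7% lower in the wild type. With each array's skeletal muscle marker mean as a covariate, Hpgd was no longer called, at -1.83 in the knockout (limma adjusted p = 0.274) and -1.30 in the wild type (limma adjusted p = 0.143). That mean was higher in every challenged than in every untreated knockout mouse, so in the knockout this fit can hardly separate it from challenge. Over all tested probes, calls fell under it from 2954 to 96 in the knockout and from 5244 to 1572 in the wild type. The part these markers have in the Hpgd result was not tested further.

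**Figure D2:**
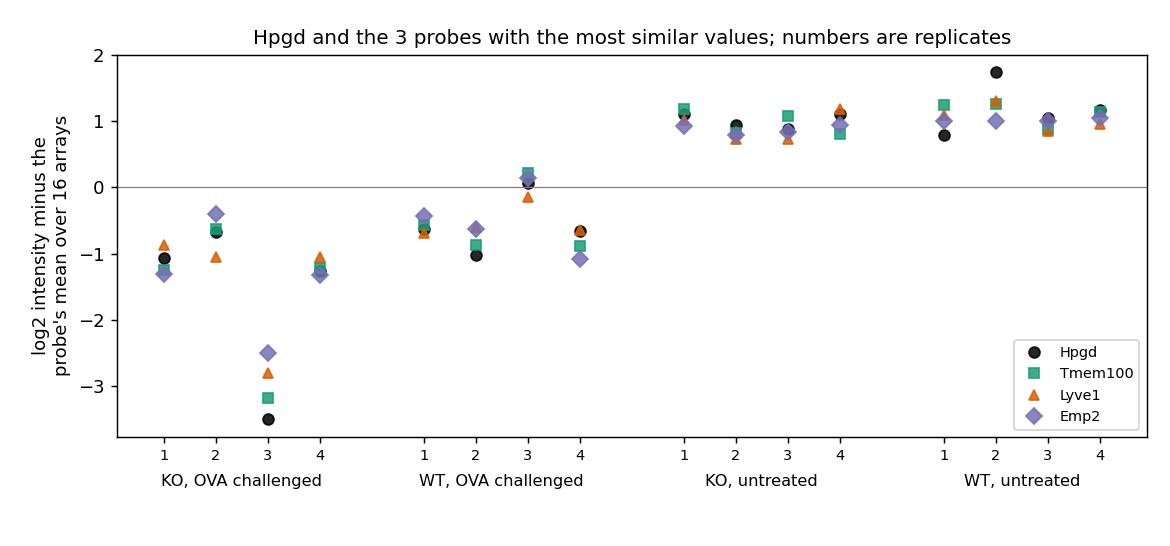
Log2 intensity on each array, centred on the probe's own mean, for Hpgd and the 3 probes nearest to it, with arrays ordered as challenged knockout, challenged wild type, untreated knockout and untreated wild type. All 4 probes are lowest in challenged knockout replicate 3 and lie above their means in all untreated mice.

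Among the enzymes that make prostaglandins, the probes gave small or no differences with challenge, and the clearest contrast lay between challenged genotypes. The first Ptges probe, for inducible prostaglandin E synthase, read 154, 201, 120 and 159 in challenged knockout mice and 90, 88.8, 101 and 74.3 in challenged wild-type mice. It read 123, 134, 100 and 93.1 in untreated knockout mice and 124, 104, 126 and 94.1 in untreated wild-type mice. All 4 challenged knockout mice lay above all 4 challenged wild-type mice, while each challenged group overlapped its untreated one. Ptges was 0.82 ± 0.16 (SE) higher on the log2 scale, or 1.77-fold, in challenged knockout than in challenged wild-type lungs (limma adjusted p = 0.00169). Challenge changed it by 0.49 ± 0.16 in the knockout (limma adjusted p = 0.0548) and by -0.34 ± 0.16 in the wild type (limma adjusted p = 0.128), neither called. Those effects differed from each other by 0.82 ± 0.23 (limma adjusted p = 0.0406). That last call was lost in 10 of the 16 fits that left out 1 array, with adjusted p up to 0.0913. The second Ptges probe was untested, at 56.6 to 79.0 over the 16 arrays and above the gauge on 3.

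Ptgs2, the inducible cyclooxygenase, had probes near background that disagreed. The first read 60.8, 58.4, 63.7 and 60.7 in challenged knockout and 85.6, 83.9, 80.2 and 101 in challenged wild-type mice, against 66.8, 79.9, 82.4 and 69.1 in untreated knockout and 78.3, 76.9, 80.2 and 79.3 in untreated wild-type mice. The challenged knockout mice were the lowest of all, and none of the 4 was above the gauge. On this probe Ptgs2 was at least 1.15-fold lower in challenged knockout than in challenged wild-type lungs (limma adjusted p = 0.00122). The second probe, at 81.1 to 107 on the 16 arrays, differed by -0.11 between the challenged genotypes and was not called (limma adjusted p = 0.303). Neither probe was called with challenge in either genotype, at -0.29 and -0.01 on the log2 scale in the knockout and 0.15 and 0.11 in the wild type.

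Dim probes as a class moved between these groups. The 1337 probes for olfactory, vomeronasal and taste receptor genes had array medians in log2 units of 5.94 to 6.02 in challenged knockout, 6.12 to 6.29 in challenged wild-type, 6.02 to 6.07 in untreated knockout and 6.04 to 6.13 in untreated wild-type mice. Of the 639 that were tested, 384 were called lower and 12 higher in challenged knockout than in challenged wild-type lungs, at a median of -0.43. A probe could pass the filter through 1 bright group alone, so these counts cannot size the shift of the class. Over all 1337 probes the array medians averaged 5.99 in challenged knockout and 6.18 in challenged wild-type mice. The lower level in the challenged knockout is the direction of the first Ptgs2 probe and the opposite of that of Ptges. With the receptor median as a covariate, the difference between challenged genotypes was -0.21 for the first Ptgs2 probe (limma adjusted p = 0.488) and 0.14 for Ptges (limma adjusted p = 0.772), neither called, and the Hpgd challenge effect in the wild type was -1.41 (limma adjusted p = 0.144). Over all tested probes, calls fell under this covariate from 7879 to 193 between challenged genotypes and from 5244 to 1310 with challenge in the wild type. The receptor medians of the challenged genotypes did not overlap, so this fit can hardly separate them from genotype in challenged mice. The part this background has in these results was not tested further.

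Ptgis, the prostacyclin synthase of endothelium and smooth muscle, was above the gauge on all 16 arrays and was called in no comparison. It read 975, 989, 471 and 1041 in challenged knockout and 1086, 890, 907 and 1243 in challenged wild-type mice, against 884, 1076, 1032 and 986 in untreated knockout and 999, 895, 943 and 1060 in untreated wild-type mice. Knockout replicate 3 alone was low. The challenge effect was -0.26 in the knockout, with a 95% interval of -0.69 to 0.17, or 0.01 without that mouse, and 0.07 in the wild type, with an interval of -0.36 to 0.50. Ptgds read 8.8 to 39.2 and was above the gauge on 0 of 16 arrays.

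On the leukotriene side, Ltc4s, the enzyme that commits leukotriene A4 to the cysteinyl branch, was highest in challenged knockout lungs. Its probe read 146, 135, 136 and 170 in challenged knockout and 67.7, 67.4, 60.7 and 65.8 in challenged wild-type mice. It read 110, 85.2, 74.5 and 80.1 in untreated knockout and 85.6, 70.6, 88 and 74.6 in untreated wild-type mice. The 4 challenged knockout mice exceeded all 12 others, and the 4 challenged wild-type mice were below all 12 others. In the knockout Ltc4s rose by 0.76 ± 0.13 (SE) on the log2 scale, or 1.69-fold, with challenge (limma adjusted p = 0.000765). In the wild type the difference was -0.28 ± 0.13 and was not called (limma adjusted p = 0.0996). These effects differed by 1.04 ± 0.18 (limma adjusted p = 0.00778), and between challenged genotypes Ltc4s was at least 1.93-fold higher in the knockout (limma adjusted p = 6.69e-05), a lower bound because none of the challenged wild-type arrays exceeded the gauge. In the fits that left out 1 array at a time, the interaction kept an adjusted p of at most 0.0228. With the receptor probe median as a covariate the interaction was 0.88 (limma adjusted p = 0.163) and the difference between challenged genotypes 0.98 (limma adjusted p = 0.0529), and with the muscle covariate the knockout challenge effect was 0.71 (limma adjusted p = 0.155). In that order these fits called 3, 193 and 96 of all tested probes, against 1662, 7879 and 2954 without a covariate. Mast cells, eosinophils and macrophages are known users of Ltc4s, and of the 5 tested mast cell markers 1 was higher and 1 lower with challenge in the knockout, and 2 higher and 1 lower in the wild type. Over all 9 mast cell marker genes with a probe, tested or not, the mean log2 intensity per array was 6.92 to 7.31 in challenged knockout and 7.03 to 7.42 in challenged wild-type mice. It was 6.98 to 7.12 in untreated knockout and 7.02 to 7.12 in untreated wild-type mice. Of the 7 tested macrophage and monocyte markers, 3 were higher and 0 lower with challenge in the knockout, 3 higher and 1 lower in the wild type, and 2 higher and 0 lower in challenged knockout than in challenged wild-type lungs. Of the 3 tested eosinophil markers, 1 was higher with challenge in the knockout and 2 in the wild type, and 1 was higher in challenged knockout than in challenged wild-type lungs. Over all 5 eosinophil marker genes with a probe, tested or not, the mean log2 intensity per array was 6.16 to 6.50 in challenged knockout and 6.26 to 6.60 in challenged wild-type mice. It was 6.02 to 6.11 in untreated knockout and 6.04 to 6.11 in untreated wild-type mice. Over all tested probes 16.6% were called with challenge in the knockout, 29.4% in the wild type and 44.2% between challenged genotypes, there 21.1% higher. The part of mast cells, eosinophils and macrophages in the Ltc4s result was not tested.

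Alox5, the enzyme that starts leukotriene synthesis, lay near the gauge at 74.3 to 92.6 on the 16 arrays. Its challenge effect was 0.01, with a 95% interval of -0.18 to 0.21, in the knockout and -0.05, with an interval of -0.25 to 0.14, in the wild type. Alox5ap, its activating partner, was higher in most challenged mice. It read 516, 602, 241 and 604 in challenged knockout and 676, 436, 517 and 356 in challenged wild-type mice, against 356, 387, 361 and 345 in untreated knockout and 309, 334, 354 and 371 in untreated wild-type mice. Knockout replicate 3 was below every untreated mouse, and wild-type replicate 4 lay among the untreated values. The challenge effects of 0.35 ± 0.24 in the knockout (limma adjusted p = 0.373) and 0.50 ± 0.24 in the wild type (limma adjusted p = 0.127) were not called. Without both of these arrays they were 0.66 (limma adjusted p = 0.00115) and 0.65 (limma adjusted p = 0.00118). Macrophage and monocyte markers were also higher in challenged mice, at a mean log2 intensity of 7.53 to 8.36 in challenged knockout, 7.76 to 8.18 in challenged wild-type, 7.21 to 7.46 in untreated knockout and 7.32 to 7.49 in untreated wild-type mice. Knockout replicate 3, at 7.53, and wild-type replicate 4, at 7.76, were the lowest of their groups. Both still lay above every untreated mouse, unlike their Alox5ap values. The part of these markers in the Alox5ap result was not tested.

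Alox15 had 2 probes. The second read 121, 107, 106 and 114 in challenged knockout and 171, 108, 96.2 and 260 in challenged wild-type mice, against 83.6, 92.7, 93.9 and 118 in untreated knockout and 92.8, 106, 89 and 84.4 in untreated wild-type mice. Wild-type replicates 1 and 4 stood above all 8 untreated mice, and the other challenged wild-type mice lay among them. It rose by 0.66 ± 0.23 on the log2 scale in the challenged wild type (limma adjusted p = 0.0423), but by 0.39 without replicate 4 (limma adjusted p = 0.0862), and the call was lost in 12 of the 16 fits that left out 1 array. The knockout effect was 0.21 (limma adjusted p = 0.583). The first Alox15 probe, at 74.4 to 118, was 0.27 ± 0.10 lower in challenged knockout than in challenged wild-type lungs (limma adjusted p = 0.0382). Without wild-type replicate 4 the difference was -0.20 (limma adjusted p = 0.0971), and the call was lost in 3 of the 16 fits that left out 1 array. With the receptor probe median as a covariate that difference was 0.0017 on the log2 scale (limma adjusted p = 0.997).

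**Figure D3:**
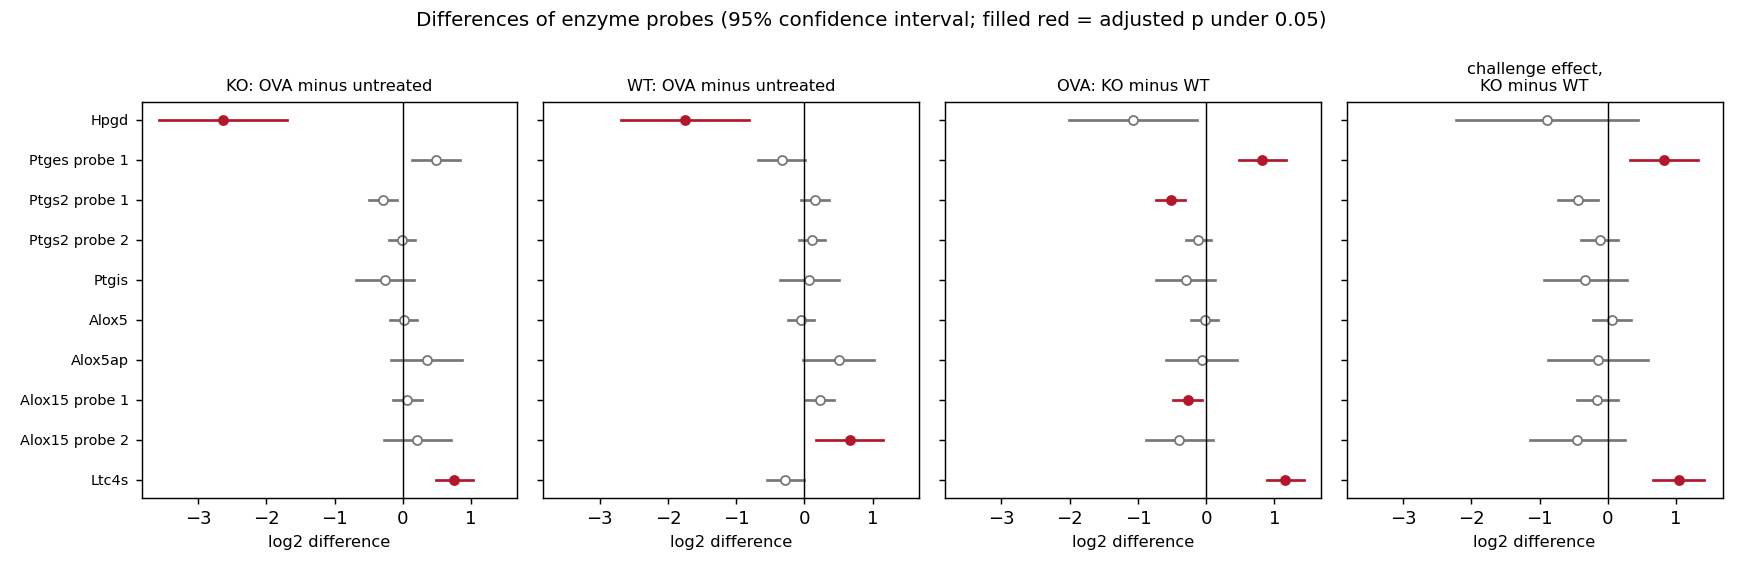
Difference in log2 intensity with its 95% interval for each tested enzyme probe, for challenged minus untreated in the knockout and in the wild type, knockout minus wild type in challenged mice, and the difference between both challenge effects, with filled points for calls at an adjusted p under 0.05. Hpgd lies far left in both challenge panels, and Ltc4s and Ptges lie right of 0 in the last panels.

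Counted over the 10 tested probes, 2 were called with challenge in the knockout, Ltc4s higher and Hpgd lower, where 16.6% of all tested probes were called, 9.1% higher and 7.48% lower. In the wild type 2 were called, the second Alox15 probe higher and Hpgd lower, against 29.4% of all tested probes, 11.7% higher and 17.7% lower. Between challenged genotypes 4 were called, Ltc4s and Ptges higher and the first probes of Ptgs2 and Alox15 lower, against 44.2%, with 21.1% higher and 23.1% lower. In untreated mice none was called by limma, against 0.0168% of all tested probes called, and 0 of the 10 had an unadjusted p under 0.05. For the difference between challenge effects 2 were called, Ltc4s and Ptges, against 9.33%. The groups did not overlap for 3 probes with challenge in the knockout, 3 in the wild type, 4 between challenged genotypes and 0 between untreated genotypes, where the shares over all tested probes were 33.3%, 26.1%, 34.4% and 4.26%. The shares of enzyme probes called lay near those of all probes in the challenged comparisons. The median challenge effect of the 10 probes was 0.04 in the knockout, against -0.05 over all tested probes, and 0.09 in the wild type, against 0.03.

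The wider pathway was read from 64 further gene symbols of arachidonic acid release, prostanoid and leukotriene synthesis, receptors, transport and breakdown, of which 44 genes with 52 probes were tested. With challenge in the knockout 10 of these probes rose and 3 fell, where 16.6% of all tested probes were called, and in the wild type 7 rose and 2 fell, where 29.4% were called. Between challenged genotypes 12 were higher and 13 lower in the knockout, where 44.2% were called, and between untreated genotypes limma called none, with 0 at an unadjusted p under 0.05. Cyp4f18 rose in both genotypes on 2 probes. It encodes an omega-hydroxylase that inactivates leukotriene B4 in mouse neutrophils. Its first probe read 771, 457, 622 and 877 in challenged knockout and 708, 454, 455 and 862 in challenged wild-type mice, against 183, 236, 229 and 212 in untreated knockout and 196, 212, 233 and 241 in untreated wild-type mice. Every challenged mouse exceeded every untreated one. The first Cyp4f18 probe rose 1.63 ± 0.22 in the knockout (limma adjusted p = 0.000169) and 1.44 ± 0.22 in the wild type (limma adjusted p = 0.000315). The second rose by 0.98 and 1.06. The wild-type calls held in the 16 fits that left out 1 array and under the 12 other alternatives. With the muscle covariate the knockout values had limma adjusted p = 0.107 and 0.134, and no knockout challenge call among the wider pathway genes named here was kept under that covariate. Over all tested probes 96 were called with challenge in the knockout under it, against 2954 without it.

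Slco2a1 and Cbr2 fell with challenge in the knockout. Slco2a1, the transporter that brings prostaglandins into cells for oxidation, read 815, 946, 205 and 673 in challenged knockout mice and 1416, 1331, 1283 and 1577 in untreated knockout mice. In the wild type it read 869, 686, 1203 and 890 in challenged and 1436, 1330, 1275 and 1459 in untreated mice. All challenged mice of either genotype lay below all untreated ones. Slco2a1 fell by 1.29 ± 0.34 on the log2 scale in the knockout (limma adjusted p = 0.0156) and differed by -0.62 in the wild type, where it was not called (limma adjusted p = 0.169). Without knockout replicate 3 the knockout value was -0.80 (limma adjusted p = 0.00522), and the wild-type value of -0.62 was called (limma adjusted p = 0.00877). Cbr2, a carbonyl reductase abundant in lung, fell by 1.08 ± 0.29 in the knockout (limma adjusted p = 0.0175), against -0.56 in the wild type (limma adjusted p = 0.148). The difference between the genotypes' challenge effects was called for neither, with interaction adjusted p of 0.332 for Slco2a1 and 0.378 for Cbr2 from limma.

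Pla2g12a and Mgst2 rose in both genotypes. Pla2g12a, a secreted phospholipase, rose on its first probe by 0.91 ± 0.16 in the knockout (limma adjusted p = 0.00118) and 0.53 ± 0.16 in the wild type (limma adjusted p = 0.0242). Its second probe was dim and untested. Mgst2, a microsomal glutathione transferase that can also make leukotriene C4, rose by 1.00 ± 0.19 in the knockout (limma adjusted p = 0.00176) and 0.77 ± 0.19 in the wild type (limma adjusted p = 0.00741). Its intensities of 679, 707, 1118 and 508 in challenged knockout and 638, 696, 509 and 731 in challenged wild-type mice all exceeded the untreated values of 312 to 390 in the knockout and 325 to 396 in the wild type. Dpep1, a dipeptidase that converts leukotriene D4, fell by 1.05 ± 0.34 in the wild type (limma adjusted p = 0.0298) and differed by -0.86 in the knockout (limma adjusted p = 0.095). Ggt5, which trims leukotriene C4, rose by 0.89 ± 0.29 in the wild type (limma adjusted p = 0.0329), with replicate 4 at 396 and the others at 108 to 131. Without replicate 4 the Ggt5 effect was 0.45 and still called (limma adjusted p = 0.00623), and that of Dpep1 was -0.74 and not called (limma adjusted p = 0.0651). Leaving out 1 array ended the wild-type call of Pla2g12a in 3 of 16 fits, that of Dpep1 in 5 and that of Ggt5 in 4.

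Between challenged genotypes 1 prostanoid receptor probe was higher and 2 were lower of 7 tested, and 1 leukotriene or lipoxin receptor probe was higher and 1 lower of 5 tested, a share near that of all tested probes. Ltb4r1, the high-affinity leukotriene B4 receptor, read 158, 182, 142 and 196 in challenged knockout and 80.8, 106, 97.1 and 64.3 in challenged wild-type mice, against 131, 130, 125 and 124 in untreated knockout and 115, 93.7, 117 and 107 in untreated wild-type mice. Every challenged knockout mouse lay above every other mouse. Ltb4r1 was 0.98 ± 0.15 higher on the log2 scale in challenged knockout than in challenged wild-type lungs (limma adjusted p = 0.000327), with a difference between challenge effects of 0.73 (limma adjusted p = 0.0391) that was lost in 10 of the 16 fits without 1 array. The second probe of Ptger3, a prostaglandin E2 receptor, was 0.77 ± 0.16 higher with challenge in the knockout (limma adjusted p = 0.00354), at least 1.53-fold since only 1 untreated knockout array exceeded the gauge. It was at least 1.52-fold higher in challenged knockout than in challenged wild-type lungs (limma adjusted p = 0.00149). Ephx2, the soluble epoxide hydrolase, read 140, 85.4, 164 and 133 in challenged knockout and 52.2, 46.8, 53.4 and 49.5 in challenged wild-type mice. It was at least 1.68-fold higher in challenged knockout lungs (limma adjusted p = 0.000511). Ephx2 exceeded the gauge on 4 challenged knockout, 0 challenged wild-type, 0 untreated knockout and 1 untreated wild-type arrays. The second Ptger3 probe did so on 4, 1, 1 and 1 in that order. Both passed the filter only through the group where they are high, so their differences are a description. Tbxa2r, the thromboxane receptor, was lower in challenged knockout lungs, at -0.46 ± 0.12 on its first probe (limma adjusted p = 0.00869), as was the phospholipase Pla2g4c, at least 1.39-fold lower (limma adjusted p = 0.00333). Ptges3, a co-chaperone also known as cytosolic prostaglandin E synthase, was 0.54 ± 0.14 higher (limma adjusted p = 0.00886), and Plaa, a phospholipase-activating protein gene, 0.31 ± 0.12 higher on its second probe (limma adjusted p = 0.0472). The Plaa call was lost in 15 of the 16 fits that left out 1 array, with adjusted p up to 0.121. With the receptor probe median as a covariate, none of these 7 genotype differences was called by limma, with adjusted p from 0.0667 for Plaa to 0.902 for Pla2g4c. Over all tested probes 193 were called between challenged genotypes under that covariate, against 7879 without it.

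**Figure D4:**
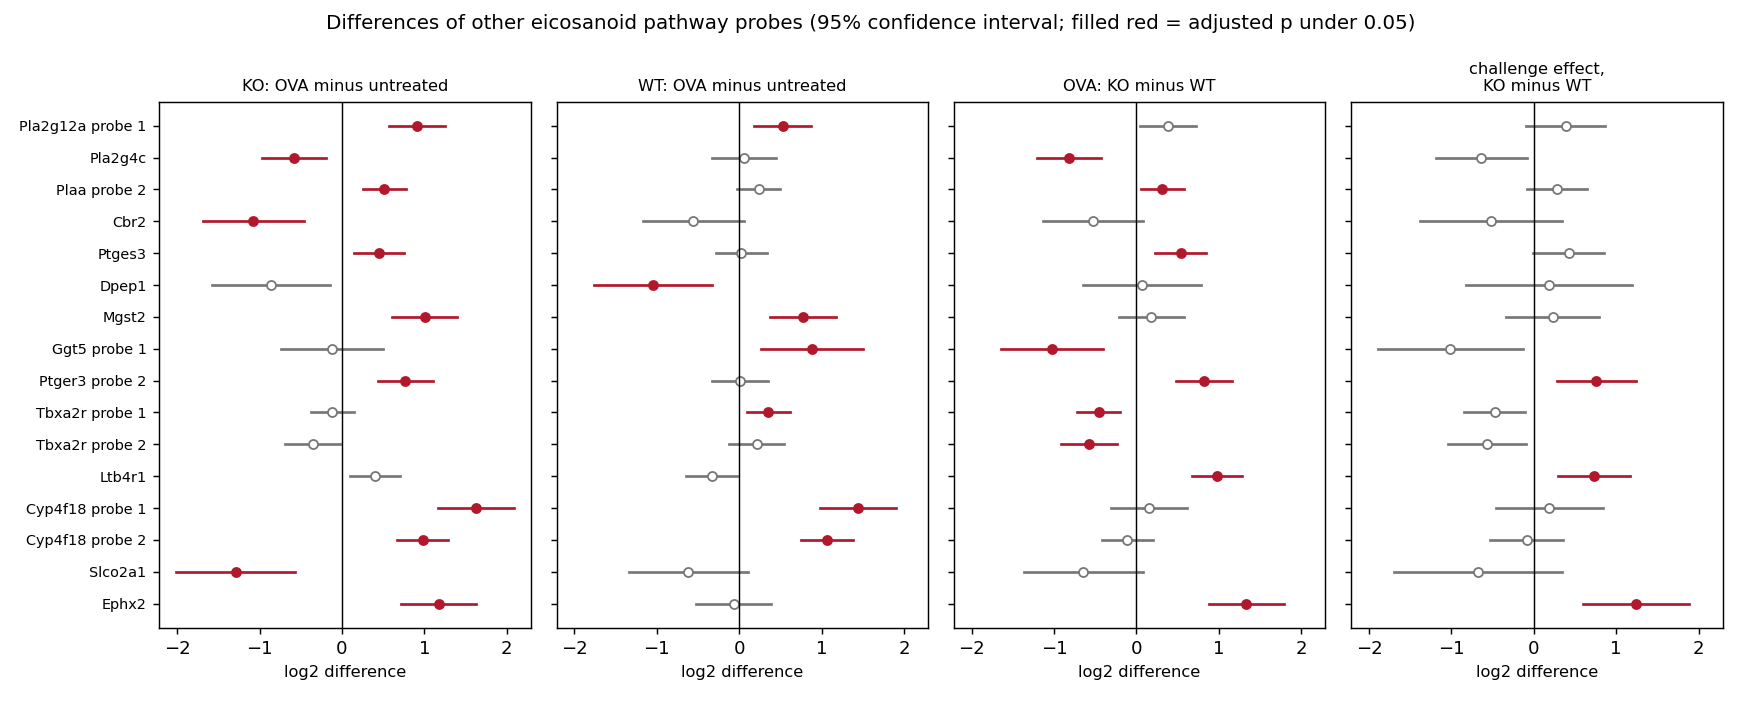
Difference in log2 intensity with its 95% interval for the named genes of the wider eicosanoid pathway and their other tested probes, in the same 4 comparisons (challenge in the knockout, challenge in the wild type, knockout minus wild type when challenged, and the difference between challenge effects), filled where the adjusted p was under 0.05. Cyp4f18 and Mgst2 lie right of 0 in both challenge comparisons, and Ltb4r1, Ptger3 and Ephx2 lie right of 0 between challenged genotypes.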

How the data were processed

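Lung RNA of 16 mice was measured on Illumina mouse bead arrays, 1 array per mouse, so p-values measure the spread between mice. The deposited values are intensities per probe on a linear scale, exported by GenomeStudio 2011.1 per the submitters' processing notes. Their normalization and background treatment are not given in the sources used here. The sorted values of the arrays were nearly identical, so no further normalization was applied. Arrays carry no read depth, and their number limits the precision.

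Intensities were raised to a floor of 16 (1123 of 411152 values) and taken to log2. Probes above their array's 40th percentile on at least 4 arrays, 17810 of 25697, were tested. All arrays entered 1 model with a mean per group (limma 3.58.1, lmFit and eBayes, R 4.3.3), and calls needed a p under 0.05 after Benjamini-Hochberg adjustment over all tested probes. Where a group exceeded the 40th percentile on at most 1 of its 4 arrays, the fold is a lower bound. It sets the brighter group's mean against that percentile in place of the dimmer group's mean, and it leaves out sampling error. Different probes of a gene were kept apart. Gene symbols came from the platform annotation, which listed 1 symbol for 23978 probes and none for 1719. Promoters came from RefSeq (GRCm38.p6).

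Every enzyme probe is named. In each wider pathway list, up to 3 called genes with the largest challenge effect are named, or the member with the smallest p. For an enzyme called in both challenge comparisons, the 3 nearest probes are named. The enzymes and the lists were chosen with earlier results of these data known. Alternatives covered the floor, normalization, filter, variance model, array weights, arrays fitted, a replicate block, covariates and each array left out.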

Additional observations from a re-analysis of the deposited data

Results flagged for a closer look

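The test of the difference between the knockout and wild-type challenge effects was passed for 5 named probes. These were 2 of the 10 tested enzyme probes and 3 of the 52 tested wider pathway probes, where 9.33% of all tested probes passed. The log2 challenge effect in the knockout exceeded the wild-type one by 1.04 for Ltc4s (limma adjusted p = 0.00778) and by 0.82 for the first Ptges probe (limma adjusted p = 0.0406). Among the wider pathway genes it did so by 1.24 for Ephx2 (limma adjusted p = 0.0265), 0.73 for Ltb4r1 (limma adjusted p = 0.0391) and 0.76 for the second Ptger3 probe (limma adjusted p = 0.0466). The Ephx2 probe and the second Ptger3 probe passed the filter only through the challenged knockout arrays, where they are high. Of the 16 fits that each left out 1 array, 10 lost the call for Ptges, 10 for Ltb4r1, 11 for Ptger3, with adjusted p up to 0.101, and 5 for Ephx2, with adjusted p up to 0.0582, while none lost it for Ltc4s.

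Single arrays lay far from the others of their group, by the gap to the nearest array against the group's range, in 7 of 136 groups looked at over 34 probes. Chance alone gives about 1 in 20. Ptgis read 471.2 in challenged knockout replicate 3, against 975.4 to 1040.9 in the other 3 mice, and Ptgds 13.6 in challenged wild-type replicate 3, against 22.9 to 24.0. The first Pla2g12a probe read 672.5 in challenged knockout replicate 2, against 888.9 to 911.1, and the second, a dim one, 54.2 in challenged knockout replicate 4, against 29.9 to 30.8. Ggt5 read 396.4 on its first probe in challenged wild-type replicate 4, against 107.5 to 130.7. In untreated wild-type replicate 2, Mgst2 read 325, against 383.7 to 395.6, and the first Ptger3 probe 31.5, against 37.1 to 37.6.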

How the results depend on the processing

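Of the 10 tested enzyme probes, 2 were called with challenge in the knockout, 2 in the wild type, 4 between challenged genotypes, 0 between untreated genotypes and 2 for the difference between challenge effects. With challenge in the knockout the count was 5 with array weights, 4 with only the 8 arrays compared and 0 with the muscle marker mean as a covariate. In the wild type it was 1 with no filter on dim probes, 1 with only the 8 arrays compared, 0 with the muscle covariate and 0 with the receptor probe median as a covariate. Between challenged genotypes it was 2 with a filter at the 60th percentile and 0 with the receptor covariate, and for the difference between challenge effects it was 0 with the receptor covariate. The receptor covariate and the removal of both arrays that stood apart, which gave 5, 2, 3, 0 and 2, were chosen after seeing the data. With 1 array left out at a time the counts ran from 2 to 4, 1 to 3, 3 to 5, 0 to 0 and 1 to 3 in the order above. Over all tested probes the main counts were 2954, 5244, 7879, 3 and 1662. They became 7048 in the knockout, 24 in untreated mice and 3665 for the difference with array weights, 96 in the knockout and 1572 in the wild type with the muscle covariate, and 1310 in the wild type, 193 between challenged genotypes and 3 for the difference with the receptor covariate. With only the 8 arrays compared they became 5818, 2084, 3336 and 13, and without both arrays 4980 in the knockout and 3010 for the difference. Leaving out 1 array gave 2095 to 5424, 3256 to 6903, 6389 to 8715, 1 to 4 and 410 to 3611. Under the receptor covariate the difference between challenged genotypes changed sign for the first probes of Alox15 (0.0017) and Ggt5 (0.22). The cause of these shifts was not tested. Replicate numbers were not used to pair the mice, and whether they pair them was not settled. Correlations of same-numbered deviations ran from -0.0931 to 0.319 and were not above 0.1 for every pair in any comparison. Of 8 arrays, 1 correlated best with its own number with challenge in the knockout and 2 with challenge in the wild type. Between challenged genotypes 4 of 8 did so, and between untreated genotypes 5 of 8. The replicate block gave 3, 2, 4, 0 and 2 enzyme calls and 2880, 5416, 7858, 1 and 1857 calls over all probes.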
